A study of Mus musculus with 89 samples.

Results

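Interferon stimulated genes are the genes that a cell switches on when an interferon binds its receptor. The data described here are the RNA molecules of a given list of 50 such genes, of which 49 were in both tables of the series, out of 27538 genes in the table of clumps and 23379 genes in the table of single cells. Irf8 was not analysed here. The list was given by name and not by a cut on a measured value, but earlier results of these data were known when it was chosen. Mouse jejunum was dissociated with EDTA, and small groups of attached cells (clumps) or single cells were sorted into the wells of 89 plates. The DNA content of the stained nuclei set the gates for clumps. All mice were C57BL/6 males on regular chow, with no treatment and no allele added. The labels gave an age of 3 months for every plate but 3 plates of single-cell mouse 2, which were given as 4 months. Of the plates, 27 held pairs of cells, 14 held larger clumps, 4 held clumps with a DNA content above that of a diploid cell from mouse 6 and 44 held single cells. Pairs came from mice 1 to 5 and larger clumps from mice 1, 4 and 5. Single cells came from mice 1 to 4 of a separate numbering, so clump mouse 1 and single-cell mouse 1 were not taken to be the same animal. Per the study's methods, single cells were sorted as positive for Epcam and negative for CD45. CD24 was added to enrich enteroendocrine and tuft cells, the latter without the CD45 gate. Plate labels named Epcam, CD24, CD45 or CD54, or gave no gate. The number of cells of each type was therefore set in part by the gates.

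Interferons are secreted by infected or immune cells. Type I and type III interferons act through receptors that carry the kinases JAK1 and TYK2, and the kinases activate a complex with STAT2 and IRF9 that binds interferon-stimulated response elements in the promoters of the genes listed here. Interferon gamma, made by T cells and natural killer cells, acts on promoters through gamma-activated sequences. In the gut the receptor for type III interferons is found mainly on epithelial cells, and interferon stimulated genes are known to protect the epithelium from enteric viruses. The jejunal epithelium is renewed from dividing cells in the crypts. Enterocytes migrate up the villus and are shed at its tip, so position along the crypt to villus tip axis also tracks the age of a cell.

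The promoters of several members hold the letters of the response element itself, and a selection of them is printed here, mostly of members that differed between zones or cell types (Irgm1 is shown although it missed the threshold). RefSeq windows from 250 bases before to 50 bases after the annotated start (GRCm38.p6) were found for 37 of the 49 members measured. An interferon-stimulated response element was read as GAAA, any 2 bases and GAAA again, searched on both strands. It was in a window of 20 of the 37 members (54.1%) and of 1079 of the 27025 genes with a window (3.99%). The letters TTCNNNGAA of a gamma-activated sequence, also searched on both strands, were found for 10 members (27%) and for 2582 of all genes with a window (9.55%). For 6 members both were found. All 4 sensors with a window and all 6 interferon-inducible GTPases with a window held the response element, against 1 of 7 regulators and 0 of 3 ubiquitin and ADP-ribose enzymes. A match describes letters only. Capitals mark each match to the response element, which reads TTTC, any 2 bases and TTTC where it lies on the opposite strand. All sequences run along the gene's own strand.
Isg15, chr4:156200850-156200921, minus strand: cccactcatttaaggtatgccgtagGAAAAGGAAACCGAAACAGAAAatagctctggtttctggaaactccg
Oas1a, chr5:120907526-120907570, minus strand: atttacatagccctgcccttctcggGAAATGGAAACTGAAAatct
Oas1g, chr5:120887614-120887656, minus strand: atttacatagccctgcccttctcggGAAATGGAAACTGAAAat
Oas3, chr5:120777700-120777759, minus strand: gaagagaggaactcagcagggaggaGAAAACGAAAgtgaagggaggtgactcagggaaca
Ifit1, chr19:34640760-34640838, plus strand: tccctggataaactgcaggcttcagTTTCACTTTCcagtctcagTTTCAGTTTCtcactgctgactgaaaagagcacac
Rsad2, chr12:26456538-26456597, minus strand: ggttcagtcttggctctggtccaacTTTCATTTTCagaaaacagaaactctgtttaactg
Stat2, chr10:128270251-128270310, plus strand: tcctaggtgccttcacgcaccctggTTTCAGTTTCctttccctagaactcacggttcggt
Ddx60, chr8:61928009-61928086, plus strand: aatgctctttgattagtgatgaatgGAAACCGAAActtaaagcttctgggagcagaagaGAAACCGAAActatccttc
Bst2, chr8:71537562-71537627, minus strand: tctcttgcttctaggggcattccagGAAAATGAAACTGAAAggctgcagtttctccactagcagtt
Gbp2, chr3:142620579-142620638, plus strand: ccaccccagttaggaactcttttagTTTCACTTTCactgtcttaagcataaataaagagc
Igtp, chr11:58199497-58199555, plus strand: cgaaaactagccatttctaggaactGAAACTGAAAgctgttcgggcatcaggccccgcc
Irgm1, chr11:48871421-48871475, minus strand: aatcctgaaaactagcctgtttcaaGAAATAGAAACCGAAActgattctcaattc
In Isg15, Oas1a, Oas1g, Bst2 and Irgm1 successive matches shared letters, and in Bst2 a TTCNNNGAA match overlapped a response element match. Oas1a and Oas1g shared the printed letters over the whole length of the shorter stretch. Reads from such near-identical genes (Oas1a and Oas1g, Ifit1bl1 and Ifit1bl2, Igtp and Irgm2) could be split between the copies by the counting, so their values are uncertain as single genes.

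After filtering, 5883 clumps of mice 1 to 5 carried a zone from landmark genes that are not members (3529 crypt, 1550 mid-villus and 804 villus tip clumps), and 5199 single cells remained. UMIs (molecules told apart by a random tag) were summed per mouse and zone, or per mouse and cell type, and the mouse was the replicate. Crypt sums held 369045 to 19001409 UMIs, mid-villus sums 172503 to 2417241 and tip sums 79055 to 816189. Levels are scaled CPM, that is UMIs per 1000000 of a library total multiplied by its TMM factor, a correction for uneven composition. The wells were counted at the 3′ end, so 1 transcript gives 1 UMI whatever its length.

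The members rose along the axis. Their summed level in crypt clumps was 762, 1284, 915, 652 and 816 scaled CPM in mice 1 to 5 (885.9 ± 241.8, SD, n = 5). In mid-villus clumps it was 1664, 2985, 2404, 1210 and 1762 (2005 ± 694.1). At the villus tip it was 2813, 4274, 4241, 2687 and 2903 (3384 ± 801.4). Each of the 5 mice had its lowest sum in the crypt and its highest at the tip, and the lowest tip sum was above the highest crypt sum. Over 5 bins of the clumps by the share of tip landmarks, the summed level without the TMM factor was 585.7 ± 65.51, 817.7 ± 256.1, 1356 ± 466.8, 1972 ± 628.8 and 3095 ± 821.4 CPM (SD, n = 5). The level was highest in the bin nearest the tip for 34 of the 49 members, and for 27 of the 38 members with at least 100 UMIs. The same count was not made over all genes. In sums over clumps, fewer cells of a type and less RNA per cell cannot be told apart.

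**Figure D1:**
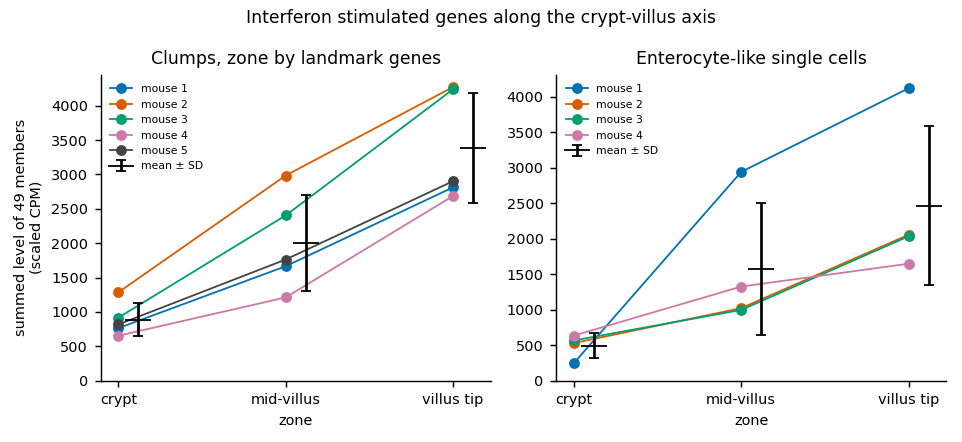
Summed level of the 49 members in scaled CPM (y axis) by zone (x axis), in clumps of 5 mice and in enterocyte-like single cells of 4 mice; points joined by a line are the mice, and bars are the mean ± SD. In clumps the mean was 885.9 in the crypt and 3384 at the villus tip, and the sum rose from crypt to mid-villus to tip in each of the 5 mice.

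For villus tip against crypt clumps, edgeR's quasi-likelihood test was used, with adjusted p-values over all 7376 genes that passed the filter on low counts. Of the 38 members that passed it, 32 were called higher at the tip and 0 lower, where 23% of all genes tested were called higher and 29.9% lower. At an unadjusted p under 0.05 the counts were 32 and 1, and DESeq2 called 28 and 1. For 16 of the 38 members every tip value was above every crypt value, and for 1 every tip value was below, where the shares of all genes tested were 10.7% and 18.7%. The median log2 fold change was 2.20 over the members tested and -0.13 over all genes tested. A member can pass the filter through the zone where it is high, so the fit was repeated on all genes with a UMI. It called 31 of all 49 members higher and 0 lower, with a median of 1.96, against 6.5% higher, 12% lower and a median of -0.68 over all genes. Without the filter the calls of Ifi35, Eif2ak2, Cmpk2, Dtx3l and Rnf213 were lost, and Oas2, Mx1, Gbp2 and Gbp7 were called. Leaving out each mouse gave 21 calls among 30 members tested without mouse 3, and 27 to 33 calls without each of the others, and 17 members (16 higher and 1 lower) were called in pairs alone. With library totals alone, and no TMM factor, the counts were 26 higher and 1 lower.

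The regulators of interferon signalling came first in the list. Of 8 measured, all 8 were tested and 7 rose from crypt to tip. Irf7, the transcription factor that amplifies interferon production, was at 18.1, 53.8, 25.2, 12.9 and 38.3 scaled CPM in crypt clumps and at 371, 365, 367, 111 and 313 at the tip. All tip values were above all crypt values, and mid-villus clumps lay between them on average (112 ± 40.8). Its log2 fold change was 3.48 ± 0.42 (SE, edgeR adjusted p = 1.34e-06). Usp18, a protease that removes ISG15 from proteins and dampens the type I receptor, was at 2.97 ± 2.47 in the crypt and at 15.9, 33.5, 40.6, 61.6 and 0 at the tip, where mouse 5 had no UMI, and rose by 4.31 ± 0.65 on the log2 scale (edgeR adjusted p = 1.69e-05). Stat2, a transcription factor of the type I and type III response, rose by 2.53 ± 0.47 (edgeR adjusted p = 0.000136) from 9.69 ± 4.87 to 49.5 ± 31.8, again with no UMI in the tip sum of mouse 5. Sp100, a nuclear body protein, rose by 2.58 ± 0.49, and its tip values ran from 12.3 to 86.9 against 0 to 13.9 in the crypt, so that the groups overlapped.

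Irf1, a transcription factor that also responds to interferon gamma, was at 82, 64, 73.5, 57.3 and 60.6 in the crypt and at 185, 134, 136, 98.6 and 174 at the tip. The rise was smaller, 1.10 ± 0.25 on the log2 scale (edgeR adjusted p = 0.00104), and the groups did not overlap. Ifi35 and Nmi, partner proteins that bind each other, had their highest zone mean in the mid-villus. Over the 5 bins of the axis Ifi35 was highest in the bin nearest the tip (121 CPM, against 119 in the fourth bin), and Nmi in the fourth (117, against 84.7 nearest the tip). By zone, Ifi35 had crypt, mid-villus and tip means of 53.2 ± 21.1, 124 ± 39.2 and 104 ± 27.8. Nmi was at 57 ± 14, 116 ± 27 and 72.5 ± 24.1. Ifi35 rose from crypt to tip (1.03 ± 0.30, edgeR adjusted p = 0.00701), while Nmi had a log2 difference of 0.39 ± 0.28 (edgeR adjusted p = 0.249). The sign for Nmi turned with library totals alone and in pairs alone.

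**Figure D2:**
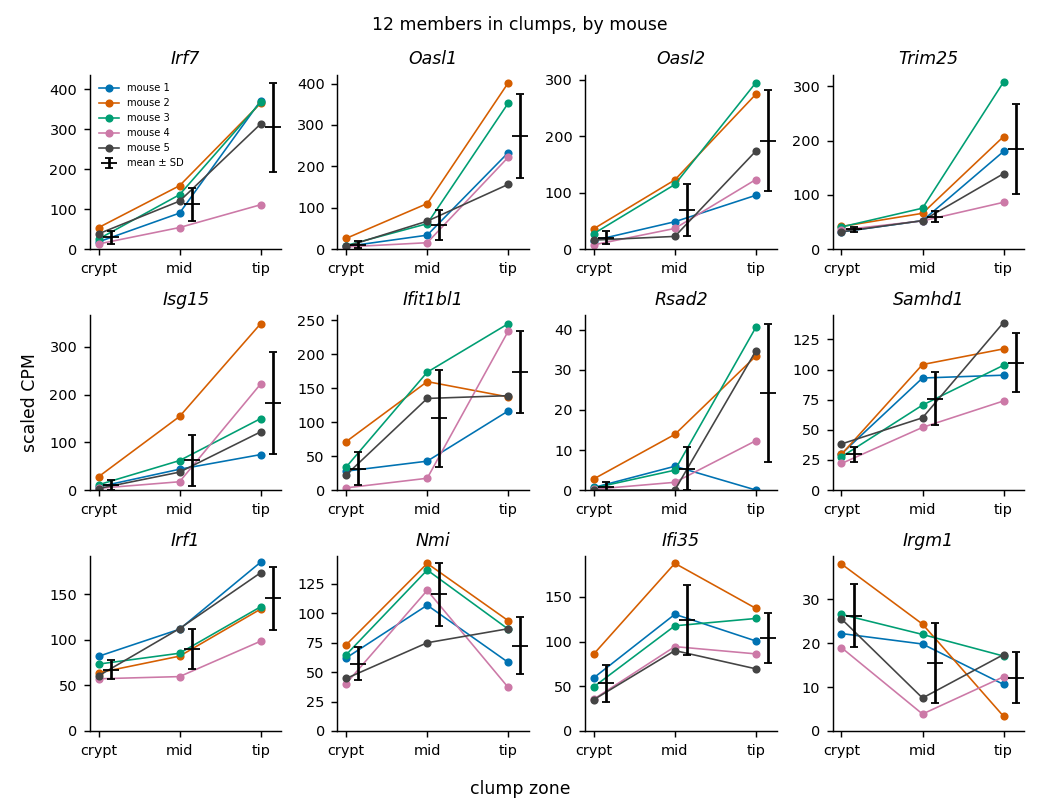
Level of 12 members in scaled CPM (y axes, each on its own scale) in crypt, mid-villus and villus tip clumps (x axes), with 1 point per mouse, joined by a line, and the mean ± SD over 5 mice. Irf7, Oasl1, Oasl2, Trim25 and Isg15 lay highest at the tip, Nmi and Ifi35 in the mid-villus, and Irgm1 lay highest in the crypt.

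The sensors of viral nucleic acid were higher at the tip in all 5 cases that could be tested, of 6 measured. Ifih1 (MDA5), a sensor of long double-stranded RNA, was at 27.6, 31.5, 23.5, 10.1 and 6.38 in the crypt and at 79.5, 110, 112, 74 and 52.2 at the tip. The values of the zones did not overlap, and the log2 fold change was 2.15 ± 0.40 (edgeR adjusted p = 0.00016). Ddx58 (RIG-I), Ddx60, Zbp1 and Eif2ak2 (PKR) rose by 1.81, 3.63, 2.30 and 1.04. Dhx58 did not pass the filter, which turns on the level in the sums, with at most 12.3 scaled CPM in any sum.

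The oligoadenylate synthetases make the messenger that activates RNase L and so lead to the decay of RNA. All 5 tested of 6 measured rose, with a median log2 fold change of 3.32. Oasl1, a relative that restrains translation of IRF7, was at 6.33, 25.9, 8.67, 5.26 and 6.38 in the crypt and at 233, 402, 353, 222 and 156 at the tip. The lowest tip value was above the highest crypt value, and the log2 fold change was 4.83 ± 0.52 (edgeR adjusted p = 4.33e-07). Oasl2 rose by 3.32 ± 0.48, with 7.61 to 36.1 in the crypt and 95.4 to 295 at the tip. Oas3 rose by 3.80 ± 0.61, with 1.71 to 15.9 in the crypt and 31.8 to 73.6 at the tip. Oas1g went from 30.7 ± 15.1 to 128 ± 61.3 and Oas1a from 7.05 ± 4.49 to 37.2 ± 17, and both rose by over 2 on the log2 scale (2.24 ± 0.40 and 2.37 ± 0.44). All 5 had no overlap between crypt and tip.

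The IFIT proteins, which bind viral RNA that lacks the marks of the host's cap, rose in all 3 cases tested of 4 measured. Ifit1bl1 was at 27.9, 71.4, 33.9, 3.17 and 22.3 in the crypt and at 117, 137, 245, 234 and 139 at the tip (2.50 ± 0.63, edgeR adjusted p = 0.00223). Its tip values were all above its crypt values. Ifit1 rose by 3.27 ± 0.79 and Ifit3 by 3.67 ± 0.78, the latter from 1.89 ± 2.26 to 27.1 ± 22.7 with no UMI in the tip sum of mouse 1. Ifit2 was at or under 1.31 at the tip in every mouse and was not tested.

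Among the antiviral effectors, 7 of the 9 tested (12 measured) were called higher. One of them, the nucleotide kinase Cmpk2, was higher at the tip in 2 of 5 mice only, with 0 UMIs there in mice 4 and 5 (1.54 ± 0.58, edgeR adjusted p = 0.0313), and was not called without the filter on low counts (edgeR adjusted p = 0.0827). Isg15, the ubiquitin-like protein attached to other proteins, was at 6.65, 27.8, 11, 3.61 and 3.19 in the crypt and at 74.2, 348, 150, 222 and 122 at the tip. No tip value reached down to the crypt values, and the log2 fold change was 4.21 ± 0.61 (edgeR adjusted p = 1.03e-05). Rsad2 (viperin), an enzyme that makes a chain-terminating nucleotide, was nearly absent from the crypt (at most 2.78) and was at 0, 33.5, 40.6, 12.3 and 34.8 at the tip. Its rise of 5.62 ± 0.76 held in 4 of 5 mice, since mouse 1 had no UMI at the tip. Samhd1, which breaks down nucleotides that viruses need, was at 30.1, 29.7, 27.6, 22 and 38.3 in the crypt and at 95.4, 117, 104, 74 and 139 at the tip (1.88 ± 0.27, edgeR adjusted p = 8.39e-06).

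Both effectors that did not pass were present in every zone. Lgals3bp, a secreted glycoprotein that binds galectins, was at 65.2, 99.2, 97.5, 176 and 163 in the crypt and at 164, 151, 206, 210 and 174 at the tip. The zones overlapped, and the log2 difference was 0.60 ± 0.31 (edgeR adjusted p = 0.107). With the mouse as a block Lgals3bp passed (0.75, edgeR adjusted p = 0.00175). Bst2 (tetherin), which holds budding virus at the membrane, had a log2 difference of 0.29 ± 0.63 (edgeR adjusted p = 0.724) and was higher at the tip in 3 of 5 mice. Over the bins it ran the other way, with means of 15.7, 10.1, 7.85, 11 and 6.83 CPM from the crypt end to the tip end. Mx1, a GTPase that traps viral components, did not pass the filter, with 1.2 ± 1.09 in the crypt and 23.5 ± 18.9 at the tip.

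The interferon-inducible GTPases, which act on vacuoles that hold pathogens, had the lowest mean summed level of the groups in every zone of the clumps. By mouse, the IFIT sum was lower in crypt clumps of mice 4 and 5 and in mid-villus clumps of mouse 4. Of 8 measured, 3 passed the filter, and without the filter 3 of all 8 were called higher (Gbp2, Gbp7 and Igtp). With the filter 1 rose, Igtp (1.90 ± 0.53, edgeR adjusted p = 0.00496), with crypt, mid-villus and tip means of 7.98, 38.3 and 22.6. In 3 of 5 mice its tip level exceeded its crypt level. Irgm1 had a negative difference in clumps. It was at 22.2, 38, 26.5, 19 and 25.5 in the crypt and at 10.6, 3.35, 17.1, 12.3 and 17.4 at the tip, lower at the tip in 5 of 5 mice and without overlap. The log2 difference of -1.07 ± 0.48 missed the threshold (edgeR adjusted p = 0.0652) and passed it with the mouse as a block (-1.20, edgeR adjusted p = 0.0109). Over the 5 bins of the axis its mean was highest in the third, at 31.3 CPM against 23.3 in the first and 12.6 in the fifth. In enterocyte-like single cells it did not pass the filter, with crypt, mid-villus and tip means of 7.84, 12.2 and 5.90 scaled CPM, and in 2 of 4 mice its tip level exceeded its crypt-zone level.

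Of the 5 ubiquitin and ADP-ribose enzymes, 4 rose, and 2 of the 5 were called without the filter on low counts. Trim25, the ubiquitin ligase that activates RIG-I, was at 31.7, 41.7, 40.8, 35.3 and 31.9 in the crypt and at 180, 208, 308, 86.3 and 139 at the tip, with no overlap (2.42 ± 0.28, edgeR adjusted p = 9.67e-07). Parp14, an ADP-ribosyltransferase, was at 41 ± 20.7 in the crypt and at 207, 184, 148, 98.6 and 104 at the tip (1.99 ± 0.41, edgeR adjusted p = 0.000393). Dtx3l and Rnf213 rose by 0.93 and 1.06, and Parp9, the partner of Dtx3l, had a log2 difference of 0.62 (edgeR adjusted p = 0.152).

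**Figure D3:**
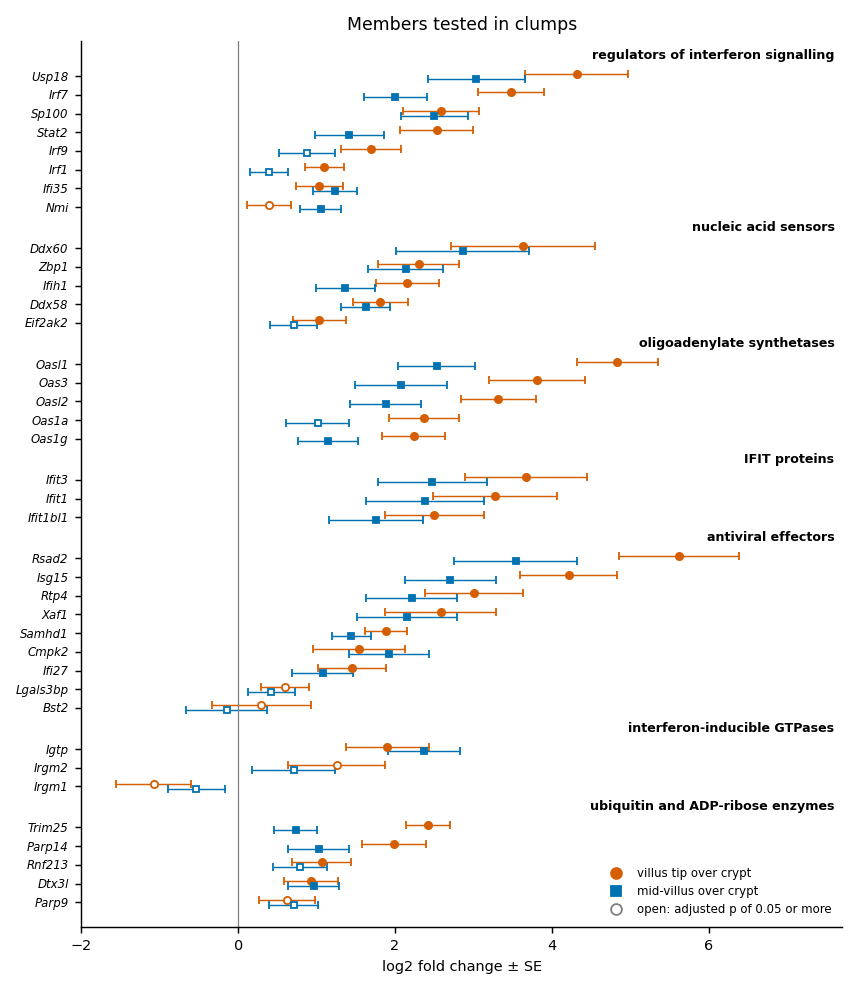
log2 fold change ± SE (x axis) of the members tested in clumps, for villus tip against crypt and for mid-villus against crypt, ordered by role (y axis); filled points passed an edgeR adjusted p of 0.05. In the tip comparison 32 of the 38 members tested were called higher, and Irgm1 had the lowest value (-1.07).

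Mid-villus clumps were also above crypt clumps. Against crypt clumps, 28 members were called higher in mid-villus clumps and 0 lower, where 15.6% of all genes tested were called higher and 24.7% lower, and the median over the members was 1.43. At an unadjusted p under 0.05 edgeR gave 33 and 0, and DESeq2 called 21 and 0. The count was 11 without mouse 3, and 12 in pairs alone. From mid-villus to tip, 6 members were called higher and 0 lower (14 and 1 at an unadjusted p under 0.05, and 5 and 1 by DESeq2), where 6.68% of all genes were called higher and 5.31% lower. The 6 were Oasl1 (2.30), Rsad2 (2.09), Oas3 (1.73), Trim25 (1.68), Irf7 (1.48) and Oasl2 (1.44). This count varied with the choices made. It was 3 without the filter, where Irf7, Oas3, Oasl2 and Rsad2 were lost and Mx1 was called, 2 without mouse 1, mouse 3 or mouse 5, 2 with library totals alone, 25 with zones cut into 3 equal parts of the clumps, and 15 higher with Nmi lower (-0.73, edgeR adjusted p = 0.0158) when the mouse was a block.

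Markers of other cells moved along the same axis. The 20 enterocyte markers summed to 10500 to 47700 CPM in crypt clumps and to 64000 to 112000 at the tip, and the 39 goblet markers to 1060 to 2220 and 1030 to 7410. The 21 lymphocyte markers in the table summed to 2.93 to 402 in the crypt and 0 to 50.6 at the tip, where 10 of the 21 had a UMI and Cd3e, Cd3g and Cd3d were at 0. The 9 myeloid markers summed to 20.5 to 373 in the crypt and 0 to 37.2 at the tip, with 3 of the 9 seen there. The medians over mice of the lymphocyte markers were 29.8, 16 and 4.98 from crypt to tip, and those of the myeloid markers 173, 11.6 and 4.98. In mice 1, 2 and 5 the lymphocyte markers were not lowest at the tip. The medians of the Paneth markers were 4870 in the crypt and 404 at the tip, and those of the stem and dividing cell markers 531 and 59.8, and the part of these markers in the result was not tested. With every clump that held a lymphocyte marker UMI left out, 30 members were called higher at the tip and 0 lower. With clumps rich in goblet, tuft, enteroendocrine or Paneth markers left out, the counts were 28 and 0. The part of the enterocyte markers in the result was not tested in clumps, and enterocyte-like single cells are described next.

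In enterocyte-like single cells (2532 cells) the members had the same direction. Their summed level was 245, 528, 565 and 633 scaled CPM in crypt-zone cells of mice 1 to 4, 2940, 1020, 995 and 1324 in mid-villus cells and 4118, 2054, 2033 and 1646 in villus tip cells. Crypt-zone cells were lowest and tip cells highest in all 4 mice after TMM scaling. Without the TMM factor the crypt zone was still the lowest in every mouse, but the tip was the highest in mice 2 and 3 alone, with mid-villus and tip sums of 2215 and 2013 CPM in mouse 1 and of 1597 and 1336 CPM in mouse 4. The crypt-zone sum of mouse 1 held 8 cells. Between tip and crypt zone, 24 of the 29 members tested were called higher and 0 lower (24 and 0 at an unadjusted p under 0.05 and by DESeq2), where 32.3% of all 3916 genes tested were called higher and 29.6% lower. The median was 2.42 over members and 0.19 over all genes, and without a filter 33 members were called higher and 0 lower. With library totals alone, 15 were called higher and 1 lower. Oasl1 was at 20.4, 0, 8.07 and 0 in the crypt zone and at 274, 162, 125 and 127 at the tip, without overlap (5.20 ± 0.60, edgeR adjusted p = 3.43e-07), and 28.4% of all genes tested were higher without overlap. Irf7 was at 20.4, 8.44, 21 and 12.6 and at 337, 159, 149 and 149 (3.67 ± 0.47, edgeR adjusted p = 1.07e-06), also without overlap. Lgals3bp was at 0, 71.8, 74.3 and 63.1 in the crypt zone and at 87.7, 53.9, 57.6 and 62.1 at the tip, with a log2 difference of 0.07 ± 0.34.

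From the mid-villus to the tip, 8 members were called higher in enterocyte-like cells and 0 lower (12 and 0 at an unadjusted p under 0.05, and 6 and 0 by DESeq2), where 13.8% of all genes were called higher and 14.4% lower. They were Oasl1 (2.48), Trim25 (1.96), Oas3 (1.49), Ifih1 (1.35), Isg15 (1.35), Stat2 (1.21), Irf7 (1.00) and Oas1g (0.96). Trim25 was at 55, 32.4, 32.6 and 28.6 in the mid-villus and at 171, 159, 98.3 and 112 at the tip, so that every tip cell sum was above every mid-villus sum, as for 13.5% of all genes tested. With zones cut into 3 equal parts the count was 0 (1 and 0 at an unadjusted p under 0.05), and it was 3 without mouse 2 or mouse 3, 2 without mouse 4 and 14 with the mouse as a block. When no TMM factor was used, 2 were called higher and 1 lower. Without the filter 9 were called, among them neither Irf7, Stat2 nor Oas1g.

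The wider interferon pathway was read from a list of 66 further genes, of which 55 had a UMI in clumps and 37 were tested. Of these, 18 rose and 7 fell from crypt to tip, where 23% of all genes tested were called higher and 29.9% lower. Among those that rose were the other parts of ISG15 conjugation, the activating enzyme Uba7 (2.53 ± 0.29, edgeR adjusted p = 7.28e-07, from 14 ± 1.76 to 75.9 ± 31.7 scaled CPM) and the conjugating enzyme Ube2l6 (2.94 ± 0.41, edgeR adjusted p = 5.77e-06, from 6.11 ± 2.39 to 42 ± 10.4). Parp12, an ADP-ribosyltransferase, rose by 2.71 ± 0.42. The kinase Jak2 rose by 2.25 and the receptor chain Ifnar2 by 1.93. From crypt to mid-villus 15 pathway genes rose and 4 fell, where the shares of all genes were 15.6% and 24.7%. From mid-villus to tip edgeR called 0 higher (9 at an unadjusted p under 0.05) and 2 lower, Il18 and Mavs, while DESeq2 called 6, and here the shares were 6.68% and 5.31%.

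The genes that fell included interferon stimulated genes of a different family. Ifitm2, a membrane protein that blocks viral fusion, was at 50, 26.9, 57.1, 60.9 and 51 in the crypt and at 5.3, 0, 2.62, 0 and 0 at the tip, with no overlap (-4.51 ± 0.64, edgeR adjusted p = 7.76e-06). Ifitm3 fell likewise (-3.36 ± 0.77, edgeR adjusted p = 0.00113). Members and Ifitm genes therefore differed in direction within the same sums. The receptor chain of type III interferon, Ifnlr1, was at 4.08 ± 1.48 in the crypt and 12.9 ± 9.81 at the tip, and Ifnar1 at 6.44 ± 2.27 and 12.5 ± 14.6, and neither passed the filter. Ifngr1, a receptor chain for interferon gamma, had a log2 difference of 0.74 ± 0.31 (edgeR adjusted p = 0.0522).

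Single cells were grouped by clustering on genes that left out the members and the pathway list, and the clusters were named from marker genes. They gave 2532 enterocyte-like, 213 goblet-like, 186 tuft-like, 251 enteroendocrine-like and 1629 lymphocyte-like cells, with 388 cells in a cluster left unnamed. Mouse 1 had no lymphocyte-like sum and mouse 4 no tuft-like sum, and 652 of the lymphocyte-like cells came from plates labelled CD24 and 936 from plates labelled only Epcam. Most tuft-like cells (157) and enteroendocrine-like cells (219) came from mouse 2. The enterocyte markers summed to 23800 to 36500 CPM in enterocyte-like sums, 4990 to 6950 in tuft-like, 2480 to 4960 in goblet-like, 2130 to 2680 in enteroendocrine-like and 1740 to 2860 in lymphocyte-like sums. Each type carried its own markers: the goblet markers summed to 26500 to 56600 in goblet-like, the tuft markers to 21500 to 31500 in tuft-like, the enteroendocrine markers to 12100 to 24900 in enteroendocrine-like and the lymphocyte markers to 46400 to 55400 in lymphocyte-like sums. RNA of the enterocyte marker genes was present in every type. Its origin, and the part of enterocyte RNA in the levels of the members, were not tested.

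The summed level of the members was 7310, 2203, 1549 and 2150 scaled CPM in enterocyte-like cells of mice 1 to 4. It was 4762, 3082, 2582 and 417 in goblet-like cells, 4951, 3366 and 1008 in tuft-like cells, 1255, 951, 511 and 358 in enteroendocrine-like cells and 1197, 1236 and 1132 in lymphocyte-like cells of mice 2 to 4. Goblet-like and tuft-like sums overlapped those of enterocyte-like cells, while all enteroendocrine-like and lymphocyte-like sums lay below them after TMM scaling. Without the TMM factor this order changed. Lymphocyte-like sums were then 1503, 1569 and 1611 CPM in mice 2 to 4, above the enterocyte-like sums of 1174, 947 and 1377 CPM in the same mice. Enteroendocrine-like sums were then 708 to 1507 CPM and overlapped the enterocyte-like sums. Tuft-like sums were then 5770, 3519 and 1973 CPM in mice 1 to 3, above the enterocyte-like sum of the same mouse (2034, 1174 and 947 CPM) in each case, whereas after scaling they were above it in mouse 2 alone. Goblet-like sums without the factor were 3376, 2109, 2210 and 748 CPM, above the enterocyte-like sum in mice 1 to 3, and after scaling in mice 2 and 3. In mouse 1, 83.4% of the enterocyte-like cells were in the tip zone, against 37.6%, 23.7% and 43.4% in mice 2 to 4. Mouse 1 also had the highest sum within the mid-villus zone and within the tip zone, as given before. Each type was tested against enterocyte-like cells, with 36 members tested among 4319 genes, and the 4 comparisons share the enterocyte-like sums. The zone of the reference changed many of the calls, so each comparison is also given against enterocyte-like cells of 1 zone.

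**Figure D4:**
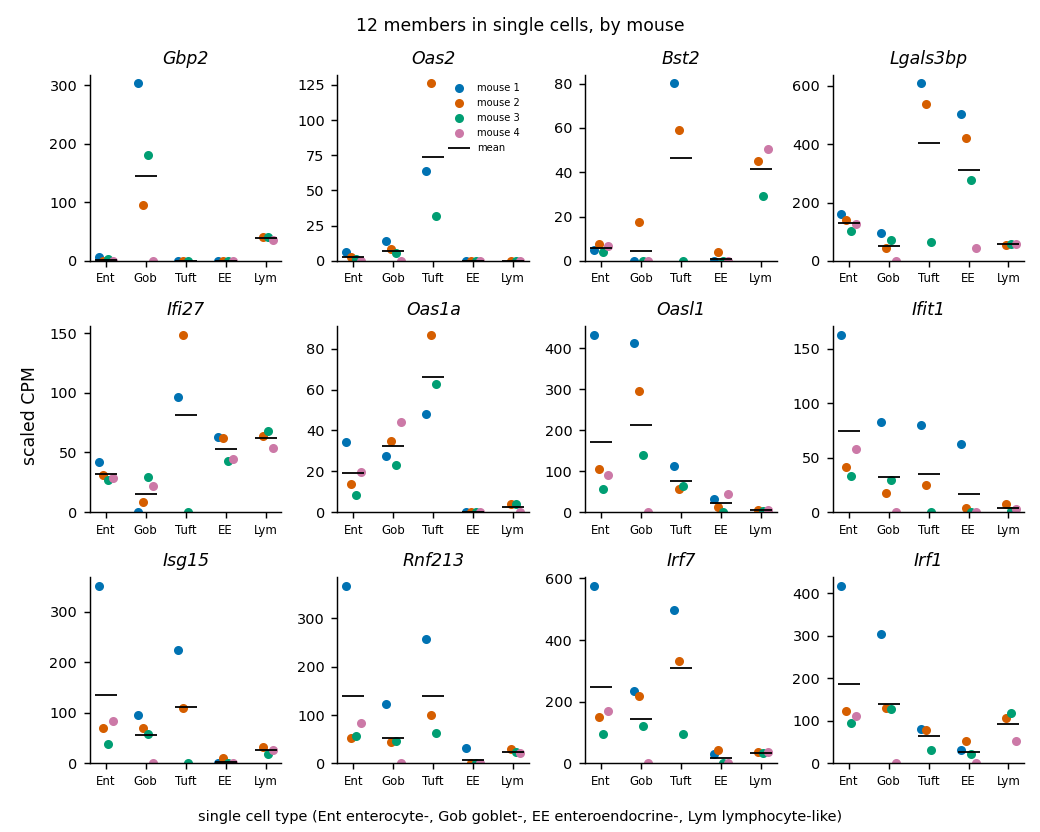
Level of 12 members in scaled CPM (y axes, each on its own scale) in enterocyte-like, goblet-like, tuft-like, enteroendocrine-like and lymphocyte-like cells (x axes), with 1 point per mouse and a line at the mean over 3 or 4 mice. Gbp2 was seen mainly in goblet-like and lymphocyte-like sums, Oas2 mainly in tuft-like sums, and Bst2 in tuft-like and lymphocyte-like sums.

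Goblet cells secrete mucus. Against all enterocyte-like cells, 2 members were called higher in goblet-like cells and 2 lower, where 6.6% of all genes were called higher and 15.3% lower. Gbp2, a guanylate-binding protein, was at 303, 95.5, 181 and 0 in goblet-like sums and at 6.21, 0, 2.34 and 0 in enterocyte-like sums. Mouse 4, with 15 goblet-like cells, had no UMI, and the goblet-like sums of the other mice were all above the enterocyte-like sums. The log2 fold change was 6.17 ± 0.71 (edgeR adjusted p = 1.26e-07). Ddx60 rose by 1.52 ± 0.55 (edgeR adjusted p = 0.0448), with 234, 278, 111 and 0 in goblet-like sums and 106, 54.1, 28.1 and 43.6 in enterocyte-like sums, which overlapped. Ifi35 (-1.54 ± 0.50, edgeR adjusted p = 0.0244) and Parp14 (-2.04 ± 0.67, edgeR adjusted p = 0.0245) were lower. Trim25, Oasl1, Samhd1 and Ddx60 had the highest means of the members in goblet-like cells, and the log2 differences of the first 3 were 0.73, 0.36 and 0.49 (edgeR adjusted p = 0.414, 0.73 and 0.569).

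Against crypt-zone enterocyte-like cells alone, 18 members were called higher in goblet-like cells and 0 lower (23 and 0 at an unadjusted p under 0.05), where 12.3% of all genes were called higher and 12.6% lower. Against villus tip cells alone, 2 were called higher and 11 lower, where the shares were 19% and 24.6%. Oasl1 had a log2 difference of 5.11 to the crypt zone, 1.99 to the mid-villus and -0.57 to the tip. With library totals alone, 8 members were called higher and 0 lower. Without the filter 3 were higher and 1 lower, and the calls of Ddx60 (edgeR adjusted p = 0.0615) and Ifi35 (edgeR adjusted p = 0.0622) were lost. The count of 4 became 7 without mouse 1, 1 without mouse 2, mouse 3 or mouse 4, and 6 higher and 3 lower with the mouse as a block.

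Tuft cells are chemosensory cells of the epithelium. Against all enterocyte-like cells, 5 members rose in tuft-like cells and 0 fell (7 and 2 at an unadjusted p under 0.05, and 5 and 0 by DESeq2), where 9.79% of all genes were called higher and 15.6% lower. Oas2 was at 64.1, 126 and 31.5 in tuft-like sums and at 6.21, 2.52, 1.56 and 0 in enterocyte-like sums, with no overlap (5.29 ± 0.60, edgeR adjusted p = 7.81e-08), and 8.47% of all genes tested were higher without overlap. It was at 0 in all enteroendocrine-like and lymphocyte-like sums and at most 13.8 in goblet-like sums. Oas1a was at 48.1, 86.9 and 63 against 34.2, 13.8, 8.57 and 19.7, also without overlap (1.99 ± 0.49, edgeR adjusted p = 0.00245). The tuft-like sums of mice 1 and 3 held 53552 and 16221 UMIs, so their values for both genes rest on few UMIs. These genes stood apart from Oasl1, another of the family, at 112, 56.1 and 63 in tuft-like and 434, 104, 56.1 and 89.6 in enterocyte-like sums (-1.21 ± 0.74, edgeR adjusted p = 0.275). Bst2 was at 80.1, 58.9 and 0 against at most 7.55 in enterocyte-like sums (3.24 ± 0.56, edgeR adjusted p = 2.55e-05). Ifi27 was at 96.1, 149 and 0 (1.72 ± 0.48, edgeR adjusted p = 0.00623), and Lgals3bp at 609, 538 and 63 against 101 to 160 (1.69 ± 0.56, edgeR adjusted p = 0.0237). For Bst2, Ifi27 and Lgals3bp the value of mouse 3, with 6 tuft-like cells, was the lowest and was not above the enterocyte-like sums. Irf7 was at 497, 334 and 94.5 in tuft-like sums, among the values of enterocyte-like cells (575, 151, 96.7 and 169, log2 difference 0.38 ± 0.63, edgeR adjusted p = 0.739). Oas1g (192, 205 and 94.5) and Rnf213 (256, 101 and 63) likewise overlapped, with log2 differences of 0.96 ± 0.53 and 0.02 ± 0.65.

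Without the filter the call of Lgals3bp was lost (edgeR adjusted p = 0.0926), and Dhx58 and Ifit2 were called higher. Without mouse 2, 18 members passed the filter and edgeR called 0, with 0 at an unadjusted p under 0.05. Of the 5 members called with all mice, 1 could then be tested, Lgals3bp (1.64 ± 0.88, edgeR adjusted p = 0.299). Oas2 and Oas1a were above every enterocyte-like sum in mice 1 and 3 as well, but on few UMIs. At the depth of these tuft-like sums any UMI of Oas2 lies above its enterocyte-like values, so this says little by itself. With library totals alone, 14 were called higher and 0 lower, and with the mouse as a block 6 higher and 5 lower. Against crypt-zone enterocyte-like cells, 22 members were called higher and 0 lower (27 and 0 at an unadjusted p under 0.05), where 15.6% of all genes were called higher and 18.1% lower. Against villus tip cells, 5 were higher and 8 lower, where the shares were 19.8% and 23.1%. Bst2 had log2 differences of 3.69, 3.44 and 2.70 to the crypt zone, mid-villus and tip.

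Enteroendocrine cells secrete gut hormones. Against all enterocyte-like cells, 0 members were called higher and 25 lower (1 and 28 at an unadjusted p under 0.05, and 1 and 23 by DESeq2), where 11.9% of all genes were called higher and 20.8% lower. The median log2 difference was -2.90, or -2.56 with members at 0 set to their bound. Isg15 was at 0, 10.4, 0 and 0 against 351, 70.5, 38.2 and 83.8 (-4.04 ± 0.95, edgeR adjusted p = 0.00114), and Oas1g at 0, 4.14, 0 and 0 against 197, 62.9, 41.3 and 64.9 (-4.66 ± 0.97, edgeR adjusted p = 0.000291). Neither overlapped the enterocyte-like sums, and 21 of the 36 members tested were lower without overlap, where 22.5% of all genes were. The enteroendocrine-like sum of mouse 4 held 11299 UMIs. A single UMI there lies above the lowest enterocyte-like value of Isg15 and of Oas1g, so a level of 0 in it says little. Oas1a, Oas3 and Igtp had no UMI in any enteroendocrine-like sum, and a floor of 3 UMIs over the group put Oas1a at least 3.71-fold lower, Oas3 at least 6.44-fold lower and Igtp at least 12.4-fold lower. These bounds depend on enterocyte-like mouse 1 and on the scaling. Without that sum they were 2.73, 4.46 and 6.29, and without TMM factors 1.49, 2.53 and 4.34. Ifi35, Parp14 and Rnf213 fell by 3.35, 4.84 and 5.97 on the log2 scale.

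Ifit1bl1 was at 157, 12.4, 0 and 0 against 42.1 to 485 and did not pass (-2.63 ± 1.07, edgeR adjusted p = 0.0564), but was among the 31 members called lower without the filter. Lgals3bp was at 502, 421, 276 and 44.7 in enteroendocrine-like sums, against 101 to 160 (1.32 ± 0.54, edgeR adjusted p = 0.0611). Ifi27 was at 62.8, 62.2, 42.5 and 44.7 against 26.5 to 42 (0.83 ± 0.52, edgeR adjusted p = 0.241), and Usp18 at 62.8, 14.5, 0 and 89.4 against 6.29 to 40.4. The counts behind some of these levels were small. Usp18 had 2, 7, 0 and 2 UMIs in mice 1 to 4, and the level of 44.7 for Lgals3bp and for Ifi27 in mouse 4 was 1 UMI each. None of the 3 passed the test against all enterocyte-like cells. Against crypt-zone cells all 3 did (2.02, 2.54 and 3.86), where Usp18 had 1 UMI in all crypt-zone sums together, and 3 members were lower there (Ifi35, -2.03, Parp14, -2.23, and Rnf213, -4.08), where 11.4% of all genes were called higher and 10.8% lower. The median of the members against the crypt zone was -0.15. Against tip cells 1 was higher and 30 lower, where the shares were 25.2% and 31.5%. With library totals alone, the counts against all enterocyte-like cells were 3 higher and 12 lower, and without mouse 2, which gave 219 of the 251 cells, 5 of 18 members tested were called, all lower.

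Lymphocyte-like cells here are cells with T cell markers from the epithelial fraction. Against all enterocyte-like cells, 3 members were called higher and 23 lower, where 29.2% of all genes were called higher and 31% lower, and the median over the members was -1.98. Those that rose were Bst2 (45.1, 29.1 and 50.4 against 4.66, 7.55, 3.9 and 6.58, 2.79 ± 0.46, edgeR adjusted p = 3.71e-06), Gbp2 (39.9, 40.4 and 35.6 against at most 6.21, 4.20 ± 0.71, edgeR adjusted p = 1.07e-05) and Gbp7 (48.3, 79.6 and 91.9 against 73, 11.3, 6.24 and 5.75, 1.69 ± 0.58, edgeR adjusted p = 0.0121). Bst2 and Gbp2 had no overlap, where 33.3% of all genes were higher without overlap, and Gbp7 overlapped through enterocyte-like cells of mouse 1. Oasl1 was at 4.2, 2.53 and 5.93 against 56.1 to 434 (-5.33 ± 0.85), Oasl2 at 7.35, 5.05 and 0 against 49.1 to 323 (-4.64 ± 0.76), and Ifit1 at 7.35, 1.26 and 2.96 against 33.5 to 163 (-4.02 ± 0.71). All 3 lay below every enterocyte-like sum, as did 21 of the 36 members tested and 33.1% of all genes. Oas3 fell by 4.65 ± 0.83. The myeloid markers summed to 998 to 1860 CPM in lymphocyte-like and 1.73 to 17.2 CPM in enterocyte-like sums, and the tuft markers to 1520 to 2220 and 60.1 to 113 CPM. The goblet markers summed to 1540 to 1640 against 73.2 to 197 CPM, the enteroendocrine markers to 474 to 800 against 15.3 to 56.4 CPM, the stem and dividing cell markers to 310 to 333 against 22.5 to 139 CPM and the plasma and B cell markers to 727 to 2970 against 12.1 to 1150 CPM. The part of these markers in the result was not tested. Sp100 was at 77.7, 98.5 and 104 against 31.5 to 85.5, and Irf1 at 107, 119 and 53.3 against 94.3 to 416, and neither passed the test (1.01 ± 0.47 and -0.97 ± 0.58, adjusted p = 0.0609 and 0.142 by edgeR). Without the filter 6 members were called higher, with Sp100, Gbp3 and Iigp1 added, and 23 lower.

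Against crypt-zone enterocyte-like cells, 9 members were called higher in lymphocyte-like cells and 0 lower (10 and 0 at an unadjusted p under 0.05), where 19.7% of all genes were called higher and 21% lower. Against tip cells 4 were higher and 24 lower, where the shares were 35.9% and 33%. Bst2 had log2 differences of 3.27, 2.96 and 2.42 to the crypt zone, mid-villus and tip. With library totals alone, 9 members were higher and 6 lower, and without mouse 2 the counts were 1 and 10 among 18 tested. Without mouse 1, the mouse with most tip-zone cells, they were 8 and 14.

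**Figure D5:**
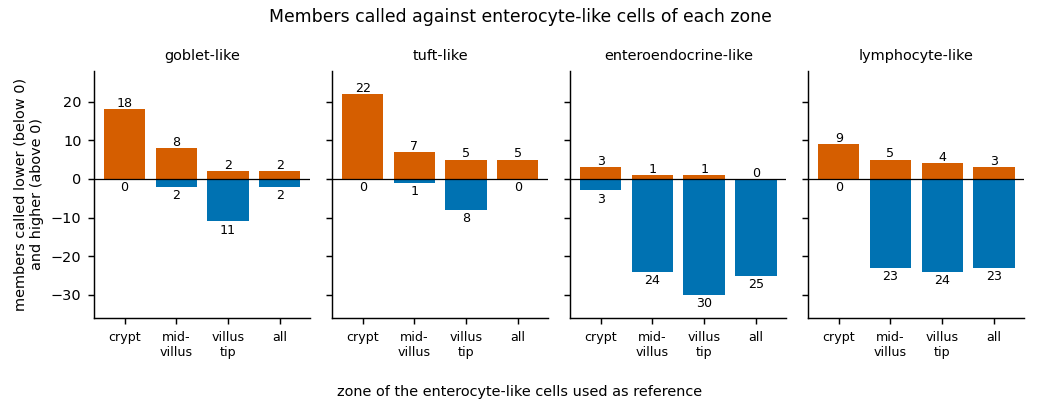
Number of members called higher (up) and lower (down) at an edgeR adjusted p of 0.05 (y axis) in goblet-like, tuft-like, enteroendocrine-like and lymphocyte-like cells against enterocyte-like cells of the crypt zone, the mid-villus, the villus tip or all zones (x axis). Against the crypt zone 18, 22, 3 and 9 members were called higher, and against the villus tip 11, 8, 30 and 24 were called lower.

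Of the 27 genes of the pathway list that were tested, lymphocyte-like cells held 5 called higher than enterocyte-like cells and 8 lower, where 29.2% of all genes were called higher and 31% lower. Among them the adaptor Tmem173 (STING) was 5.01 higher and the GTPase Tgtp2 5.00 higher on the log2 scale. Ifng, the gene of interferon gamma, had UMIs only in lymphocyte-like sums among the 5 named types (8.39, 42.9 and 8.89 scaled CPM), and the type III receptor chain Ifnlr1 had 0 there and 17.1, 8.81, 3.9 and 12.3 in enterocyte-like sums. Ifngr1 was at 80.8, 70.7 and 65.2 in lymphocyte-like and 35.1 to 87 in enterocyte-like sums, and at 0, 5.61 and 0 in tuft-like sums. Of the same 27 genes 1 rose and 3 fell in goblet-like cells, where 6.6% of all genes were called higher and 15.3% lower. In tuft-like cells edgeR called 0 higher and 4 lower (2 and 6 at an unadjusted p under 0.05, and 1 and 4 by DESeq2), where the shares were 9.79% and 15.6%. In enteroendocrine-like cells 1 rose and 13 fell, where they were 11.9% and 20.8%.

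The scaling bears on every single-cell comparison. Enterocyte-like sums carried 63.9% to 80.6% of their UMIs in 20 genes, and their TMM factors were 0.278 to 0.641, against 1.26 to 1.42 for lymphocyte-like sums. Leaving the factors out moved the median of all genes by 0.71 for goblet-like, 1.16 for tuft-like, 1.24 for enteroendocrine-like and 1.35 for lymphocyte-like cells on the log2 scale, by -0.36 for tip against crypt clumps and by -1.0 for tip against crypt enterocyte-like cells. Differences given here are relative to the genes as a whole after TMM scaling.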

How the data were processed

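Per the labels and the study's methods, clumps and single cells were sorted into plates and sequenced by MARS-seq, and the authors counted molecules with zUMIs on GRCm38 (the submitters' processing notes name bcl2fastq 2.15.0.4). The deposited values were whole UMI counts per gene and well, 38454111 for clumps and 39137313 for single cells. The 2 tables share the same 384 well barcodes, so plate names were used to keep wells apart.

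A clump had to hold 200 genes or more, over 500 UMIs and no more than 30% of mitochondrial UMIs. This left 6004 of 15626, and the 2% with the lowest landmark share were dropped. A cell had to hold 150 to 1500 genes, 200 to 7000 UMIs and no more than 40% of mitochondrial UMIs. This left 5199 of 16850. No doublet caller was run, since wells were sorted 1 cell each and an upper UMI limit was used. Cells were clustered with scanpy 1.11.5 (2000 variable genes, 25 components, 20 neighbours, Leiden resolution 0.1) without the genes under study and named from at least 3 marker genes among the leading 50. Sums needed at least 5 clumps or cells. Landmark genes were left out of the zone tests and cell markers out of the cell type tests.

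Tests between sums used edgeR 4.0.16 (quasi-likelihood, TMM, filterByExpr, all groups of a table in 1 fit, Benjamini-Hochberg over all genes tested, threshold 0.05). DESeq2 1.42.0, other scalings, filters, zones, references, clump kinds and left-out mice were alternatives. On simulated counts 84% of 4-fold and 19.1% of 2-fold changes were called in the clump design, 81.1% and 16% in the cell design, and 88.4% and 12.5% in the enterocyte zone design. The simulation used the same fixed spread for every gene and no mouse effect. It changed only villus tip sums, or goblet-like sums in the cell design. These shares therefore do not give the power of the tests reported here. Numbers pair sums of the same mouse: deviations from the group mean correlated at 0.170 to 0.542 between zones in clumps, 0.009 to 0.545 between cell types and 0.060 to 0.586 between enterocyte zones. Between different mice these correlations were -0.264 to 0.213, -0.508 to 0.482 and -0.479 to 0.097. The main fits held no mouse term and so did not use this pairing, and the model with the mouse as a replicate block was an alternative.

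Members described by mouse were, in clumps, the 10 with the highest level and up to 10 more by smallest adjusted p between tip and crypt, and per cell type the 4 with the highest level and up to 6 more that passed. Others named were chosen after their values were seen. The members and lists were chosen with earlier results of these data known.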

Additional observations from a re-analysis of the deposited data

Results flagged for a closer look

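Chance gives about 1 in 20 for independent groups, while the groups here share mice and sums. In 20 of 120 groups of 4 or 5 mice, 1 mouse lay far from the others. Of these, 12 were enterocyte-like sums of mouse 1, all high: 433.5 scaled CPM for Oasl1, 770.6 for Parp14, 574.8 for Irf7, 197.3 for Oas1g, 366.7 for Rnf213, 484.7 for Ifit1bl1, 158.5 for Igtp, 351.1 for Isg15, 85.45 for Sp100, 416.4 for Irf1, 73.02 for Gbp7 and 323.1 for Oasl2. In that mouse 83.4% of enterocyte-like cells were in the tip zone. Its enterocyte-like sum also had the lowest TMM factor, 0.278 against 0.533 to 0.641 in mice 2 to 4. Without the factor its members summed to 2034 CPM, against 947 to 1377 CPM in those mice. The part of the tip share and of the factor was not tested. In crypt clumps mouse 2 was high for Oasl1 (25.95), Rsad2 (2.781) and Oas1a (14.83), and at the villus tip mouse 4 was low for Irf7 (110.9). Among enteroendocrine-like sums, mouse 1 stood apart for Ifit1bl1 (156.9) and Rnf213 (31.38) and mouse 2 for Oas1g (4.145) and Isg15 (10.36), where the other sums were at or near 0. These sums held 26542 UMIs in mouse 1 and 447871 in mouse 2, so each of these values rests on few UMIs.

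Clumps of mouse 6, which entered none of the main comparisons, had summed member levels of 1132 (crypt), 2207 (mid-villus) and 2711 (tip) CPM without a TMM factor. The unnamed cluster of single cells had sums of 1250, 1131, 653.3 and 938.8 CPM in mice 1 to 4, also without a TMM factor, so neither set of sums is on the scale of the scaled CPM.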

How the results depend on the processing

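Counts of members called moved as follows, with the alternatives of library totals alone, of 1 reference zone, of sums over 20 cells and of other bounds for genes at 0 chosen after seeing the data. Leaving out each mouse gave 21 to 33 calls (32 in the main comparison) for tip against crypt clumps, 11 to 32 (28) for mid-villus against crypt, 2 to 6 (6) for tip against mid-villus, 1 to 7 (4) for goblet-like, 0 to 7 (5) for tuft-like, 5 to 27 (25) for enteroendocrine-like, 11 to 24 (26) for lymphocyte-like, 2 to 10 (8) for tip against mid-villus and 21 to 23 (24) for tip against crypt enterocyte-like cells. Pairs alone gave 17, 12 and 2 in the 3 clump comparisons. With the mouse as a replicate block the counts were 16 for tip against mid-villus clumps, 9 for goblet-like, 11 for tuft-like and 14 for tip against mid-villus enterocyte-like cells, and in no other member comparison did the block move the count by over 1.5 times. Library totals alone gave 2 for tip against mid-villus clumps, 8 for goblet-like, 14 for tuft-like, 15 for enteroendocrine-like, 15 for lymphocyte-like and 3 for tip against mid-villus enterocyte-like cells. Cutting 3 equal zones gave 25 in tip against mid-villus clumps and 0 in enterocyte-like cells, and no filter gave 3 in the former. For goblet-like cells DESeq2 and its size factors gave 1 each, and the crypt, mid-villus and tip references gave 18, 10 and 13. For tuft-like cells the marker sum gave 3 and the references 22, 8 and 13. The crypt reference gave 6 for enteroendocrine-like and 9 for lymphocyte-like cells.

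For the pathway list, leaving out each mouse gave 17 to 25 (25), 11 to 21 (19) and 1 to 6 (2) in the clump comparisons, 0 to 4 (4), 1 to 7 (4), 3 to 14 (14) and 6 to 21 (13) in the cell types, and 0 to 6 (5) and 6 to 13 (11) in the enterocyte zones, in the order above. Pairs alone gave 11 and 7 against the crypt. Tip against mid-villus clumps gave 6 by DESeq2, 4 with size factors, 16 with the replicate block, 9 with mouse 6 added, 4 over 1000 UMIs, 14 with 3 equal zones and 4 with library totals alone. Goblet-like cells gave 2 by DESeq2, 2 with size factors, 7 with the block, 2 without plates labelled CD45 or CD54 and 7 against the tip. Tuft-like cells gave 8 without a filter, 9 with the block, 8 with library totals alone, 7 against the mid-villus and 8 against the tip. Enteroendocrine-like cells gave 9 by marker sum, 6 with library totals alone and 2 against the crypt. Lymphocyte-like cells gave 27 without a filter, 22 with library totals alone and 23 without sums under 20 cells. Enterocyte zones gave, for tip against mid-villus, 3 without a filter, 9 with the block, 0 with 3 equal zones and 8 with library totals alone, and 21 without a filter for tip against crypt. The cause of these moves was not tested.

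Among others, the sign turned for Nmi in pairs alone (-0.25) and with library totals alone (-0.014). It also turned against crypt-zone cells for Parp14 in goblet-like (0.62), Isg15 in enteroendocrine-like (0.29) and Ifit1 in lymphocyte-like cells (0.48). For Oasl1 in goblet-like cells it turned against the villus tip, as given before. The smallest tip sum held 79055 UMIs and the smallest enteroendocrine-like sum 11299, and their part in the calls was not tested.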
